A study of Mus musculus with 7 samples.

Results

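Fatty acid oxidation and ketogenesis in the liver were followed through 48 genes, taken by their symbols from the 56691 genes of the count table. They encode the carnitine shuttle, the enzymes of mitochondrial and peroxisomal beta-oxidation, the cytochrome P450 enzymes of omega-oxidation, enzymes of ketone body metabolism and further targets of the nuclear receptor PPAR-alpha. Liver RNA was sequenced from mice given lipopolysaccharide (LPS), a component of the outer membrane of Gram-negative bacteria, as a model of septic acute liver injury, and from control mice. All animals were male C57BL/6J mice, an inbred laboratory strain, that arrived at an age of 8 weeks and were kept for 2 weeks before use. The LPS group was injected intraperitoneally with 10 mg/kg LPS and its livers were taken after 24 h, while the sources used here do not say whether the control mice were given a vehicle. The study kept 6 separate mice in each group, of which 4 control livers (control replicates 1 to 4) and 3 LPS livers (LPS replicates 1 to 3) were analysed. The counts include no livers of the mice that the study pretreated with sulforaphane.

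Fatty acids are activated to acyl-CoA, carried into mitochondria as acylcarnitines and shortened there by repeated cycles of dehydrogenation, hydration, dehydrogenation and thiolysis, while very long chains are first shortened in peroxisomes. In the fasted liver the resulting acetyl-CoA is turned into ketone bodies, which other organs burn as fuel. PPAR-alpha, which binds DNA together with the retinoid X receptor, drives the transcription of many of these genes when fatty acids reach the liver, and the coactivator PGC-1alpha can add to its activity.

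The total counts were 14991022, 15096573, 15721944 and 18584140 in control replicates 1 to 4 and 20500391, 17095607 and 17821331 in LPS replicates 1 to 3. Levels are given as CPM, the counts of a gene divided by the TMM-scaled size of its library, always in the order of the replicates, and means as mean ± SD over the 4 control or the 3 LPS livers. They are not divided by gene length, so each gene is compared between samples and not with other genes. At this depth 3 counts, taken as the floor of detection, amount to between 0.138 and 0.212 CPM, a limit that covers counting error only. Some libraries stood apart. Transcripts of the mitochondrial genome took 23.7% and 14.6% of the counts in control replicates 1 and 2, 7.48% and 8.96% in control replicates 3 and 4, and 6.45%, 3.83% and 3.94% in LPS replicates 1 to 3. LPS replicates 2 and 3 resembled each other more than any other pair within a group, with an SD of 0.10 for the log2 ratio of well-counted genes against at least 0.29 in the other pairs, so the spread within the LPS group rests largely on LPS replicate 1. Among genes with fewer counts the variance over counting noise was 3.71 in that pair and 4.67 to 7.73 in the others, a measure that cannot tell 2 mice from 2 preparations of 1 mouse. Both were kept as separate samples, as they are labelled. As a check of the labels, the acute phase gene Hp was 10.3-fold higher in LPS livers, and Saa1 and Saa2 had log2 fold changes of 7.99 and 9.15, with every LPS replicate above every control replicate.

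Of the 48 genes, 47 passed the filter on low counts and were tested together with all other expressed genes by edgeR's quasi-likelihood test with Benjamini-Hochberg adjustment. Log2 changes are fold changes of LPS over control on a log2 scale, and negative values mean lower levels in LPS livers. The gene left out was Acot3, with at most 0.567 CPM in any sample. At an adjusted p below 0.05, 18 members were lower in LPS livers, or 38.3% of those tested, where 13.0% of all 13683 tested genes were lower. Another 7 members were higher, or 14.9%, where 13.3% of all tested genes were higher, and 22 did not pass in either direction. The count of higher members was 4 in place of 7 without LPS replicate 2, without LPS replicate 3 and with total counts in place of scaled library sizes. Together 25 members passed, or 53.2%, against 26.3% of all tested genes. With a change of more than 2-fold required as well, 11 members were lower (23.4%, against 7.31% of all tested genes) and 4 were higher (8.51%, against 7.81%). The share of lower members was thus above that of all genes, and the share of higher members lay near it. The members and the further lists below were chosen by function with earlier results of these data known, so these shares are descriptions and not tests. The median log2 fold change was -0.16 over the tested members and -0.01 over all tested genes, and single members lay between -3.69 and 2.70. In 19 members (40.4%, against 17.4% of all tested genes) every LPS replicate was below every control replicate, and in 8 (17.0%, against 18.1%) every LPS replicate was above. Single genes ran in both directions: among those whose call held in every fit at the same threshold, Acsl1, Acsl5, Acaa1b, Bdh1 and Fabp1 fell, while Crat, Cyp4a14, Cyp4a31 and Ppargc1a rose.

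**Figure D1:**
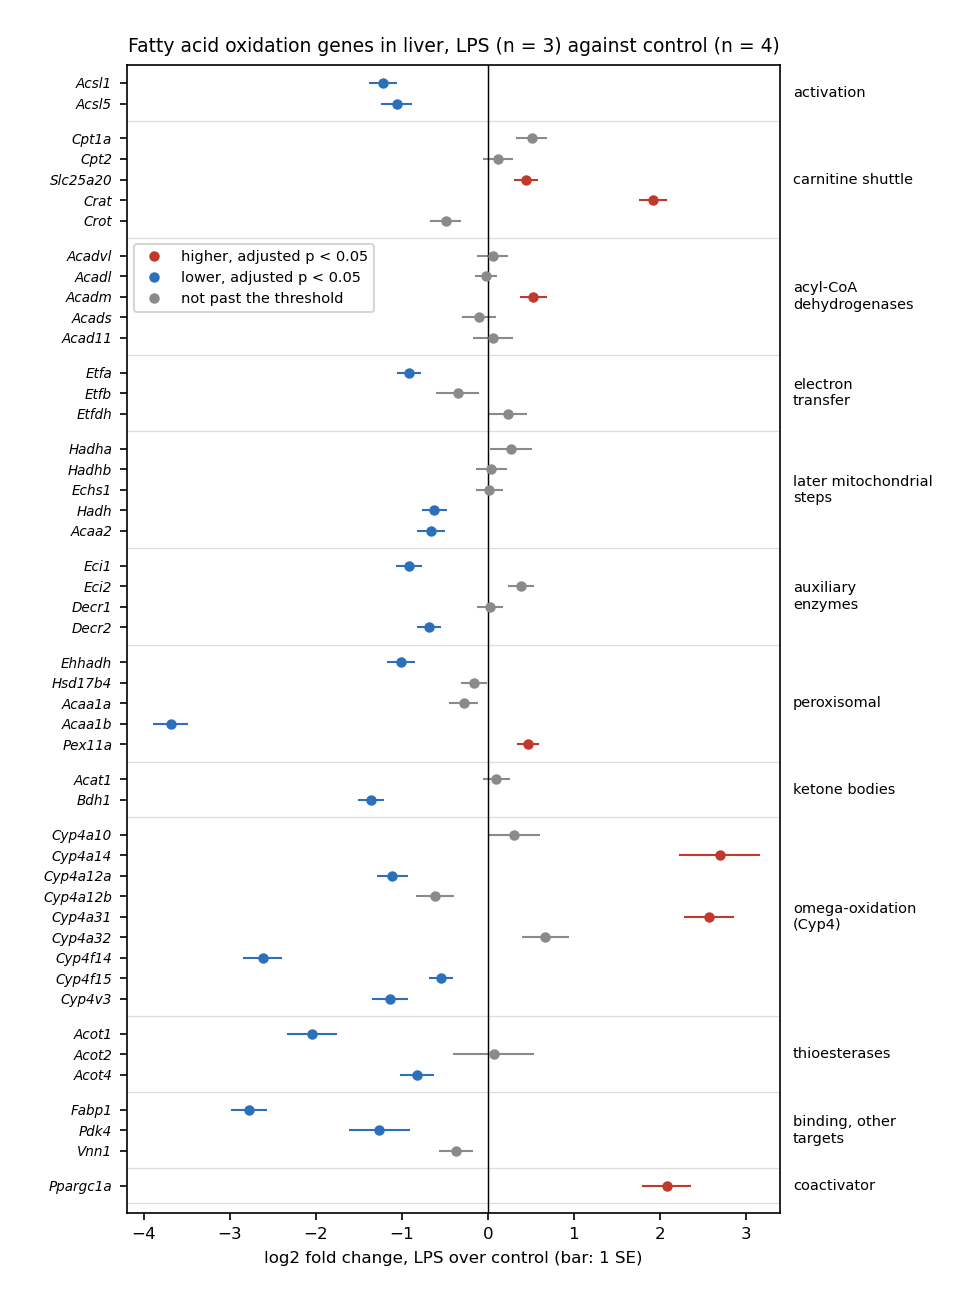
Log2 fold change of the 47 tested genes, LPS (n = 3) over control (n = 4), on the horizontal axis, with 1 SE as bars and genes grouped by step of the pathway. Colours mark the 7 genes that were higher, the 18 that were lower and the 22 that did not pass the threshold; Acaa1b lies lowest at -3.69 and Cyp4a14 highest at 2.70.

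The counts of all 48 members together were lower in the LPS livers. Their summed level was 15146, 15911, 15521 and 15377 CPM in control replicates and 7645, 8792 and 8774 CPM in LPS replicates, which is 1.43%, 1.67%, 1.62% and 1.71% of all counts against 0.810%, 0.799% and 0.792%. The 2 groups did not overlap, and the ratio of the means, control over LPS, was 1.84. Much of this sum came from Fabp1. Without it the summed level was 8737, 9606, 11056 and 10704 CPM in control replicates and 6891, 7964 and 7970.4 CPM in LPS replicates, a ratio of 1.32 with all LPS replicates still below all control replicates.

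The tissue label was checked against 16 hepatocyte markers, all of which were tested. Their summed level was 73692, 72177, 96202 and 84498 CPM in control replicates and 51242, 57395 and 57862 CPM in LPS replicates, with Alb as the most counted gene. Of these markers 3 were higher in LPS livers (18.8%, against 13.3% of all tested genes) and 4 lower (25.0%, against 13.0%). Their median log2 fold change was -0.05. With each mouse left out in turn, 2 to 4 were higher and 1 to 4 lower, the fewest without LPS replicate 2 or 3, and the call for Serpinc1 held in 2 of 7 such fits, that for Apoa1 in 4, and those for Alb and Hnf4a in 5. The sum was lower in every LPS replicate than in every control replicate, but it rests largely on a few abundant genes that fell. The means of Alb, Ttr and Apoa1 went from 46926, 6067 and 9973 CPM to 24637, 2593 and 6122 CPM, and Serpinc1 was lower as well. The 3 higher markers, Pck1, Tat and Hnf4a, had log2 changes of 1.12, 1.40 and 0.74, and 9 markers did not pass. The fall of the sum thus does not stand for the list as a whole. These are whole-tissue samples, in which fewer cells of a type and less RNA per cell cannot be told apart.

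Markers of other liver cells moved as well. Of 12 neutrophil markers 8 passed the filter on low counts, and all 8 were higher (100%, against 13.3% of all tested genes). All of these but S100a9 and Csf3r were too low in the control livers to pass that filter without the LPS livers, so the count of higher genes follows in part from the filter. The markers not tested, Ly6g, Camp, Mpo and Elane, had at most 8 counts in any liver. The whole list summed to 5.23, 4.73, 2.01 and 2.85 CPM in control replicates and 215, 157 and 158 CPM in LPS replicates, with S100a9 as the most counted gene. Of 12 markers of Kupffer cells, monocytes and macrophages 6 were higher and 1 lower. Among all tested genes 13.3% were higher and 13.0% lower. The sums of this list, led by Marco, were 141, 202, 187 and 123 CPM and 753, 226 and 228 CPM. Of the 6 higher genes of this list Ly6c2 and Itgam also passed the filter only through the LPS livers. LPS replicate 1 had the highest sum of this list, and without it 4 markers were lower in place of 1, as Vsig4, Timd4 and Cd5l joined Clec4f.

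Of 8 markers of sinusoidal endothelium 2 were higher (25.0%, against 13.3% of all tested genes) and 2 lower (25.0%, against 13.0%). Their sums, led by Fcgr2b, were 133, 171, 113 and 145 CPM in control replicates and 157, 92.8 and 91.9 CPM in LPS replicates. Of 8 stellate cell markers 2 were lower (25.0%, against 13.0% of all tested genes). Their sums, led by Dcn, were 454, 309, 196 and 307 CPM and 281, 243 and 230.4 CPM. In both of these lists the groups overlapped. With each mouse left out in turn, 1 to 3 endothelial and 1 to 2 stellate cell markers were lower, the call for Kdr holding in 3 of 7 fits and that for Lrat in 4. Of 5 cholangiocyte markers 1 was higher, where 13.3% of all tested genes were. Their sums, led by Spp1, were 262, 108, 72.1 and 116 CPM and 137, 164 and 158 CPM, highest in control replicate 1. Of 8 lymphocyte markers 4 were tested and 2 were lower (1 in most fits that left out a mouse), where 13.0% of all tested genes were. All 4 passed the filter only through the control livers. The sums of the list, led by Cd4, were 7.63, 7.75, 5.49 and 4.54 CPM and 3.22, 1.67 and 3.23 CPM. Of the markers of neighbouring tissues, the fat gene Lep had no counts in any sample, nor had the muscle genes Acta1, Ckm and Myh4 or the pancreas genes Prss2, Cpa1 and Pnlip. Of the 5 adipocyte markers 2 were tested, Fabp4 being higher and Cfd lower. Cfd had overlapping groups and an adjusted p of 0.0463, and it passed the filter on low counts only through the control livers. It was called in 1 of the 4 fits that left out 1 mouse and still tested it (adjusted p up to 0.153). The adipocyte list summed to 14.0, 12.6, 9.46 and 5.41 CPM and 88.7, 75.7 and 74.6 CPM, mostly from Fabp4. The sums of the 4 muscle markers, 0.919, 0.946, 0.610 and 0.290 CPM and 0.506, 0.386 and 0.124 CPM, came from Mylpf, which did not pass, and those of the 4 pancreas markers, 17.5, 19.6, 15.9 and 15.4 CPM and 5.34, 5.60 and 7.34 CPM, from Cela1, which fell. What these shifts in marker levels contribute to the changes of the fatty acid oxidation genes was not tested.

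Both members of fatty acid activation fell (100%, against 13.0% of all tested genes). Acsl1 (ENSMUSG00000018796), which encodes a long-chain acyl-CoA synthetase, had 798, 734, 1032 and 919 CPM in control replicates and 358, 382 and 384 CPM in LPS replicates. Every LPS liver lay well below the lowest control liver, and the LPS livers were close to one another. The mean went from 871 ± 132 CPM to 375 ± 14.8 CPM, a log2 change of -1.22 (adjusted p = 0.000135, SE 0.16). Acsl5 (ENSMUSG00000024981), a second long-chain acyl-CoA synthetase, had 278, 324, 384 and 451 CPM and 154, 186 and 177 CPM, again without overlap, and a log2 change of -1.06 (adjusted p = 0.000848, SE 0.18). Both calls held in each of the 19 alternatives tried. The related Acsl3 and Acsl4, which are not members, did not pass, with log2 changes of 0.48 (adjusted p = 0.0724) and 0.36 (adjusted p = 0.165).

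In the carnitine shuttle 2 of 5 genes rose (40.0%, against 13.3% of all tested genes). None fell at the threshold, where 13.0% of all tested genes were lower. Crat (ENSMUSG00000026853), whose product carnitine acetyltransferase moves acetyl and other short acyl groups between CoA and carnitine, had 13.4, 19.1, 17.1 and 17.6 CPM in control replicates and 52.7, 69.4 and 69.5 CPM in LPS replicates. All LPS livers were far above all control livers, 3.79-fold on average, with a log2 change of 1.92 (adjusted p = 2.87e-06, SE 0.16). Slc25a20, the carnitine-acylcarnitine translocase of the inner membrane, rose from 99.8 ± 9.89 CPM to 136 ± 12.7 CPM, a log2 change of 0.44 (adjusted p = 0.034, SE 0.14). Its call was lost when single libraries were left out: the adjusted p was 0.0637, 0.0709 and 0.0541 without control replicate 1, 2 or 4 and 0.161 and 0.119 without LPS replicate 2 or 3. It was 0.186 with total counts in place of scaled library sizes, and 0.0808 without control replicates 1 and 2 together. Cpt1a (ENSMUSG00000024900), which encodes the carnitine palmitoyltransferase of the outer membrane that sets the pace of entry into mitochondria, had 151, 177, 219 and 243 CPM and 228, 302 and 314 CPM. LPS replicates 2 and 3 were above all control livers, while LPS replicate 1 was below control replicate 4, so the groups overlapped. With a log2 change of 0.51 (adjusted p = 0.0591, SE 0.18), Cpt1a did not pass the threshold. DESeq2 gave an adjusted p of 0.036 for this gene, and edgeR gave 0.0499 and 0.036 without control replicate 3 or 4 and 0.0321 without LPS replicate 1. With the replicate number as a block edgeR gave 0.0155, and the block fit, here and below, also left out control replicate 4. Crot, the carnitine octanoyltransferase of peroxisomes, had 692, 846, 1033 and 1031 CPM and 569, 681 and 668 CPM. Its LPS livers were all below its control livers, but a log2 change of -0.49 (adjusted p = 0.0565, SE 0.18) did not pass. The adjusted p of Crot was 0.0145 without control replicate 1, 0.0228 with DESeq2 and 0.00354 without control replicates 1 and 2. Cpt2, the inner membrane carnitine palmitoyltransferase, had 99.0 ± 18.9 CPM and 108 ± 16.2 CPM, and a log2 change of 0.12 (adjusted p = 0.67).

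Of the 5 acyl-CoA dehydrogenases, which catalyse the opening oxidation of each cycle, 1 rose and 4 did not pass. Among all tested genes 13.3% were higher, so 1 call among 5 genes does not set this step apart. Acadm (ENSMUSG00000062908), the medium-chain enzyme, had 200.03, 228, 282 and 262 CPM in control replicates and 309.9, 367 and 375 CPM in LPS replicates. The lowest LPS liver was above the highest control liver, and the 1.44-fold difference gave a log2 change of 0.53 (adjusted p = 0.0254, SE 0.16). This call was lost without control replicate 2 (adjusted p = 0.0637), without LPS replicate 2 (0.107) or 3 (0.116), with total counts (0.122) and without control replicates 1 and 2 together (0.0746). Acads, the short-chain enzyme, had 55.5, 89.4, 102 and 95.1 CPM and 69.8, 81.0 and 88.9 CPM, and Acad11, a further member of the family, had 132, 184, 270.3 and 253 CPM and 178, 241 and 238 CPM. In both genes control replicate 1 was the lowest sample of all and the LPS livers lay within the range of the control livers. Their log2 fold changes were -0.10 (adjusted p = 0.762) and 0.06 (adjusted p = 0.874). The very long-chain and long-chain enzymes Acadvl and Acadl had log2 changes of 0.06 (adjusted p = 0.861) and -0.02 (adjusted p = 0.925). Acadl varied least of all members among control livers, with a coefficient of variation of 6.32%.

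Of the 3 genes that pass the electrons of these dehydrogenases on to the respiratory chain, 1 fell (33.3%, against 13.0% of all tested genes). Etfa (ENSMUSG00000032314), its alpha subunit, had 530.3, 487, 435 and 448 CPM in control replicates and 234, 256 and 262 CPM in LPS replicates, all LPS livers being below all control livers, with a log2 change of -0.92 (adjusted p = 0.000432, SE 0.14). Etfb, the beta subunit, had 207, 195, 106 and 102 CPM and 105, 125 and 128 CPM. Here control replicates 1 and 2, the libraries with the largest mitochondrial share, were the highest samples and control replicates 3 and 4 lay near the lowest LPS liver, and a log2 change of -0.35 (adjusted p = 0.323, SE 0.25) did not pass. Etfdh, which passes the electrons on to ubiquinone, had 125, 177, 259 and 262 CPM and 209.8, 259 and 257 CPM, with control replicates 1 and 2 as the lowest samples among the controls. Its log2 fold change was 0.23 (adjusted p = 0.499). Whether the difference between Etfa and Etfb is larger than their errors was not tested.

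In the later mitochondrial steps 2 of 5 genes fell (40.0%, against 13.0% of all tested genes). Hadh (ENSMUSG00000027984), the 3-hydroxyacyl-CoA dehydrogenase for shorter chains, had 161, 169, 213 and 200.3 CPM in control replicates and 118, 123 and 121 CPM in LPS replicates, without overlap, and a log2 change of -0.62 (adjusted p = 0.00746, SE 0.15). Its LPS livers were the closest together of all members, with a coefficient of variation of 1.86%. Acaa2, the mitochondrial thiolase, had 705, 830.2, 825 and 780.0 CPM and 417, 538 and 534 CPM, also without overlap, and a log2 change of -0.66 (adjusted p = 0.00736, SE 0.16). Hadha (ENSMUSG00000025745), the alpha subunit of the trifunctional protein that handles long chains, had 152, 178, 319 and 291 CPM and 226, 311 and 314 CPM. Control replicates 1 and 2 were low and control replicates 3 and 4 high, with the LPS livers in the same range, and a log2 change of 0.27 (adjusted p = 0.46, SE 0.24) did not pass. Hadhb, the beta subunit, and Echs1, the short-chain enoyl-CoA hydratase, had log2 changes of 0.04 (adjusted p = 0.917) and 0.02 (adjusted p = 0.95).

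Double bonds of unsaturated fatty acids need auxiliary isomerases and reductases. Of these 4 genes 2 fell, where 13.0% of all tested genes were lower. Eci1, the mitochondrial enoyl-CoA isomerase, had 111, 104, 80.8 and 92.3 CPM in control replicates and 52.8, 51.2 and 49.8 CPM in LPS replicates. The groups were well apart and the 1.89-fold difference gave a log2 change of -0.92 (adjusted p = 0.000555, SE 0.15). Decr2, the peroxisomal dienoyl-CoA reductase, had 177, 208, 180.2 and 205 CPM and 106, 128 and 128 CPM, without overlap, and a log2 change of -0.68 (adjusted p = 0.00381, SE 0.14). Eci2, the other isomerase, had 116, 138, 168 and 158 CPM and 179, 198 and 191 CPM. Its LPS livers were all above its control livers, yet a log2 change of 0.39 (adjusted p = 0.0826, SE 0.15) did not pass, and without control replicate 3 the adjusted p was 0.0404. Decr1, the mitochondrial reductase, had a log2 change of 0.03 (adjusted p = 0.902).

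The peroxisomal genes held the deepest fall of all members. Acaa1b (ENSMUSG00000010651), a thiolase that closes the cycle in peroxisomes, had 636, 763, 518 and 649 CPM in control replicates and 56.7, 41.3 and 50.9 CPM in LPS replicates. It was 12.9-fold lower, with a log2 change of -3.69 (adjusted p = 5.1e-08, SE 0.20), and between -3.79 and -3.57 on the log2 scale when each mouse was left out in turn. Its close paralog Acaa1a had 109.7 ± 21.6 CPM and 90.2 ± 7.54 CPM, a log2 change of -0.28 (adjusted p = 0.237, SE 0.17), which did not pass. How reads that fit both paralogs were counted is not given in the sources used here, so their division is uncertain. The sum of both, which does not depend on how reads were divided between them, though it may on reads left out, was 742, 903, 608 and 751 CPM in control replicates and 138, 135 and 146 CPM in LPS replicates. By this sum the LPS livers were 5.37-fold lower and did not overlap the control livers. Ehhadh (ENSMUSG00000022853), the bifunctional enzyme of the inducible peroxisomal pathway, had 196, 200.3, 264 and 269 CPM and 119.6, 111 and 117 CPM, a 2.01-fold fall without overlap, with a log2 change of -1.01 (adjusted p = 0.00052, SE 0.16). Hsd17b4, the second bifunctional enzyme, had 396 ± 31.7 CPM and 354 ± 41.1 CPM and a log2 change of -0.16 (adjusted p = 0.465). Pex11a, which promotes the division of peroxisomes, went the other way. It had 58.0, 71.7, 65.6 and 69.0 CPM and 95.7, 92.1 and 86.2 CPM, all LPS livers above all control livers, with a log2 change of 0.47 (adjusted p = 0.0205, SE 0.13). The call for Pex11a was lost without LPS replicate 1 (adjusted p = 0.0636), 2 (0.0827) or 3 (0.0553) and with total counts (0.161).

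Of the 2 members of ketone body metabolism, 1 fell, where 13.0% of all tested genes were lower. Bdh1 (ENSMUSG00000046598), which encodes the dehydrogenase that turns acetoacetate into beta-hydroxybutyrate, had 132, 134, 167 and 153 CPM in control replicates and 52.9, 60.5 and 57.3 CPM in LPS replicates. The highest LPS liver was below the lowest control liver by a wide margin, a 2.57-fold fall with a log2 change of -1.36 (adjusted p = 2.1e-05, SE 0.15), and the call held in all 19 alternatives. Acat1, the acetoacetyl-CoA thiolase that opens the route, had 336, 359.8, 484 and 432 CPM and 402, 440.1 and 454 CPM, with the LPS livers inside the range of the control livers and a log2 change of 0.10 (adjusted p = 0.699).

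**Figure D2:**
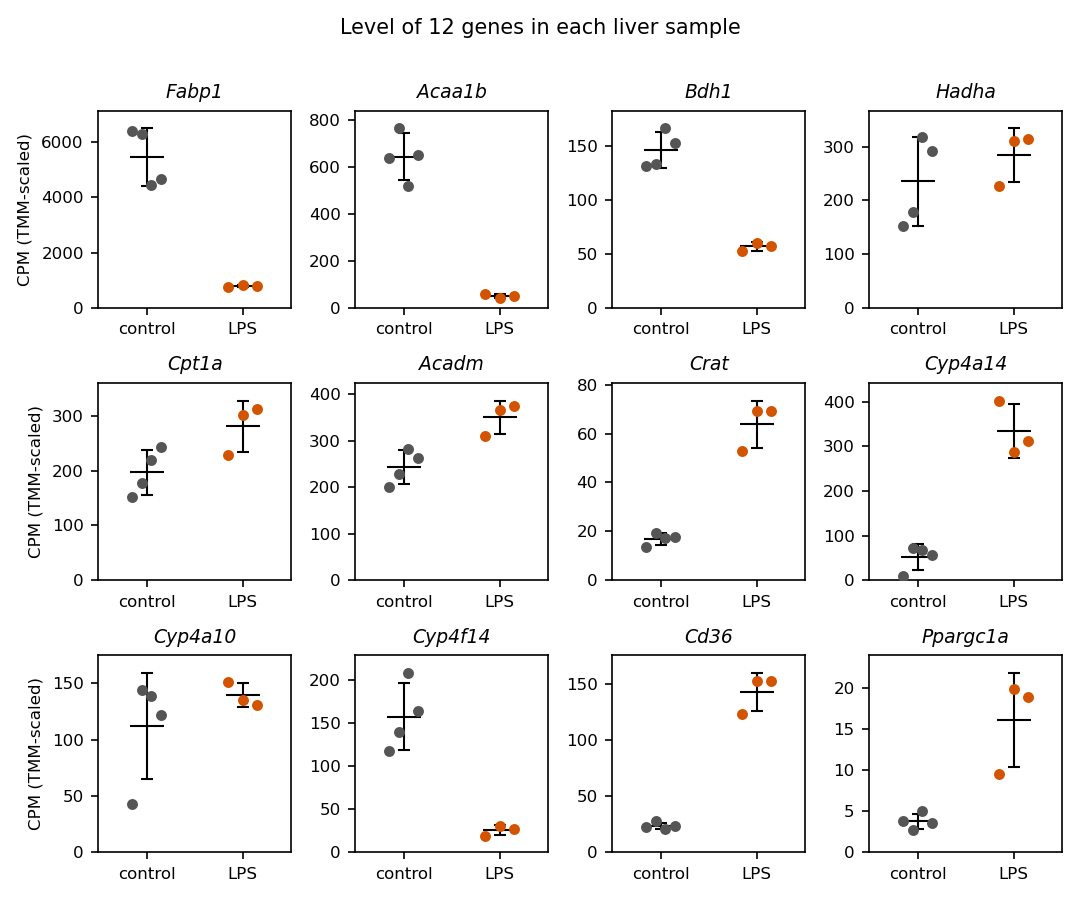
CPM of 12 genes in each control (n = 4) and LPS (n = 3) liver on a linear axis from 0, with points for single livers and bars for the mean ± SD. Fabp1, Acaa1b, Bdh1 and Cyp4f14 are below and Crat, Acadm, Cyp4a14, Cd36 and Ppargc1a above the other group in every LPS liver, while the groups overlap for Hadha, Cpt1a and Cyp4a10.

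The Cyp4 enzymes hydroxylate the far end of the fatty acid chain, and they moved in opposite directions. Cyp4a14 (ENSMUSG00000028715) had 9.12, 72.5, 67.0 and 57.2 CPM in control replicates and 403, 288 and 311 CPM in LPS replicates. Control replicate 1 was far below the other control livers, and all LPS livers were far above them, 6.48-fold on average, with a log2 change of 2.70 (adjusted p = 0.000982, SE 0.47). The log2 fold change lay between 2.35 and 2.90 when each mouse was left out in turn. Cyp4a31 had 2.26, 2.46, 5.68 and 5.12 CPM and 22.2, 22.3 and 25.4 CPM, a 5.94-fold rise without overlap, with a log2 change of 2.57 (adjusted p = 3.22e-05, SE 0.29). Cyp4a10 (ENSMUSG00000066072) had 43.3, 144, 139 and 121 CPM and 151, 135 and 131 CPM. As in Cyp4a14, control replicate 1 was by far the lowest sample, the other control livers overlapped the LPS livers, and a log2 change of 0.31 (adjusted p = 0.499, SE 0.30) did not pass. Cyp4a32 had 16.8 ± 6.88 CPM and 26.9 ± 4.96 CPM and a log2 change of 0.67 (adjusted p = 0.0897), with an adjusted p of 0.0151 without control replicate 4, 0.00342 with the replicate number as a block and 0.00285 with no filter on low counts. Cyp4a12a fell from 377 ± 64.8 CPM to 174 ± 28.3 CPM, a log2 change of -1.11 (adjusted p = 0.000565, SE 0.18). Its near copy Cyp4a12b had 76.8 ± 22.5 CPM and 50.1 ± 10.0 CPM and a log2 change of -0.61 (adjusted p = 0.0527). The adjusted p of Cyp4a12b was 0.0356 without control replicate 3, 0.0303 with DESeq2 and 0.011 with total counts.

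These Cyp4a genes are close paralogs whose reads may have been divided in a way that the sources used here do not give, so their single values are uncertain and the sums of close copies are given beside them. Cyp4a12a and Cyp4a12b together had 561, 400.2, 478 and 378 CPM in control replicates and 180.2, 246 and 248 CPM in LPS replicates, which did not overlap. Cyp4a10, Cyp4a31 and Cyp4a32 together had 54.5, 163, 161 and 152 CPM and 195, 189 and 184 CPM, also without overlap, although their shares of all counts did overlap, since that of control replicate 2 was 0.0171% and that of LPS replicate 3 was 0.0166%. All 6 Cyp4a genes summed to 625, 636, 706 and 587 CPM in control replicates and 778, 723 and 743 CPM in LPS replicates. This total was higher in each LPS liver than in each control liver by CPM, at a ratio of 1.17, but not as a share of all counts, where control replicate 3 had 0.0736% and LPS replicates 2 and 3 had 0.0657% and 0.0670%.

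The other Cyp4 members fell. Cyp4f14 (ENSMUSG00000024292), whose product also inactivates leukotriene B4, had 118, 139.8, 209 and 165 CPM in control replicates and 19.3, 30.6 and 27.4 CPM in LPS replicates. It was 6.13-fold lower without overlap, with a log2 change of -2.62 (adjusted p = 3.54e-06, SE 0.23). Cyp4v3 fell from 537 ± 148 CPM to 244 ± 26.7 CPM, a log2 change of -1.14 (adjusted p = 0.0015). Cyp4f15 fell from 103 ± 11.5 CPM to 71.1 ± 5.80 CPM, a log2 change of -0.54 (adjusted p = 0.0143), and its adjusted p was 0.0609, 0.0506 and 0.0544 without LPS replicate 1, 2 or 3.

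Acyl-CoA thioesterases release free fatty acids from CoA. Of the 3 tested genes 2 fell (66.7%, against 13.0% of all tested genes). Acot1, the cytosolic enzyme, had 8.48, 11.1, 8.67 and 13.5 CPM in control replicates and 3.22, 2.64 and 1.68 CPM in LPS replicates, a 4.12-fold fall without overlap, with a log2 change of -2.04 (adjusted p = 0.000208, SE 0.29). Acot4, a peroxisomal enzyme, had 15.7, 21.9, 14.9 and 20.9 CPM and 11.0, 11.5 and 8.64 CPM, without overlap, and a log2 change of -0.82 (adjusted p = 0.00801, SE 0.20), with an adjusted p of 0.0511 without LPS replicate 3. Acot2, the mitochondrial enzyme, had 2.12, 1.26, 1.04 and 2.42 CPM and 1.24, 2.57 and 1.62 CPM, in overlapping groups, and a log2 change of 0.07 (adjusted p = 0.933). These genes lie in a cluster of paralogs, and the 4 of them together, Acot3 included, had 26.4, 34.9, 24.8 and 37.2 CPM in control replicates and 15.5, 16.9 and 12.5 CPM in LPS replicates, a fall in the sum of 2.06-fold without overlap.

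Fabp1 (ENSMUSG00000054422), which encodes the liver fatty acid binding protein that carries fatty acids through the cytosol, had 6408, 6305, 4465 and 4673 CPM in control replicates and 754, 828 and 803 CPM in LPS replicates. The LPS livers were within a narrow band and every control liver was several times higher. The mean went from 5463 ± 1037 CPM to 795 ± 37.7 CPM, a 6.87-fold fall with a log2 change of -2.78 (adjusted p = 9.65e-07, SE 0.21). Pdk4 (ENSMUSG00000019577), a kinase that shuts off pyruvate dehydrogenase when fat is burned, had 21.6, 24.3, 6.35 and 21.3 CPM and 8.15, 6.18 and 8.71 CPM. Control replicate 3 lay among the LPS livers and far from the other control livers, and a log2 change of -1.26 (adjusted p = 0.0218, SE 0.36) passed the threshold. That call depended on the samples used: the adjusted p was 0.0697 and 0.0512 without control replicate 2 or 4, 0.0504, 0.092 and 0.0546 without LPS replicate 1, 2 or 3, and 0.16 without control replicates 1 and 2 together. With the replicate number as a block it was 0.0938. Vnn1, a pantetheinase that frees the precursor of CoA, had 31.9, 39.2, 61.8 and 38.2 CPM and 30.3, 35.1 and 33.8 CPM, with control replicate 3 as the highest sample and overlap between the groups. Its log2 fold change was -0.37 (adjusted p = 0.207), and the adjusted p was 0.0401 without control replicates 1 and 2.

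Ppargc1a (ENSMUSG00000029167), which encodes the coactivator PGC-1alpha, rose. It had 3.82, 2.71, 5.01 and 3.58 CPM in control replicates and 9.48, 19.8 and 18.9 CPM in LPS replicates. All LPS livers were above all control livers, LPS replicate 1 less so than the other 2, and the 4.24-fold difference gave a log2 change of 2.08 (adjusted p = 0.000168, SE 0.29). Its relative Ppargc1b had 2.03 ± 1.02 CPM and 1.09 ± 0.462 CPM and a log2 change of -0.89 (adjusted p = 0.275). Ppara, the receptor itself, had 19.8, 22.6, 25.1 and 26.8 CPM in control replicates and 27.1, 15.9 and 16.4 CPM in LPS replicates. LPS replicate 1 had the highest level of all samples and LPS replicates 2 and 3 the lowest, and a log2 change of -0.25 (adjusted p = 0.408, SE 0.20) did not pass. Rxra, its partner in DNA binding, had 193 ± 35.4 CPM and 238 ± 28.1 CPM and a log2 change of 0.30 (adjusted p = 0.211).

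**Figure D3:**
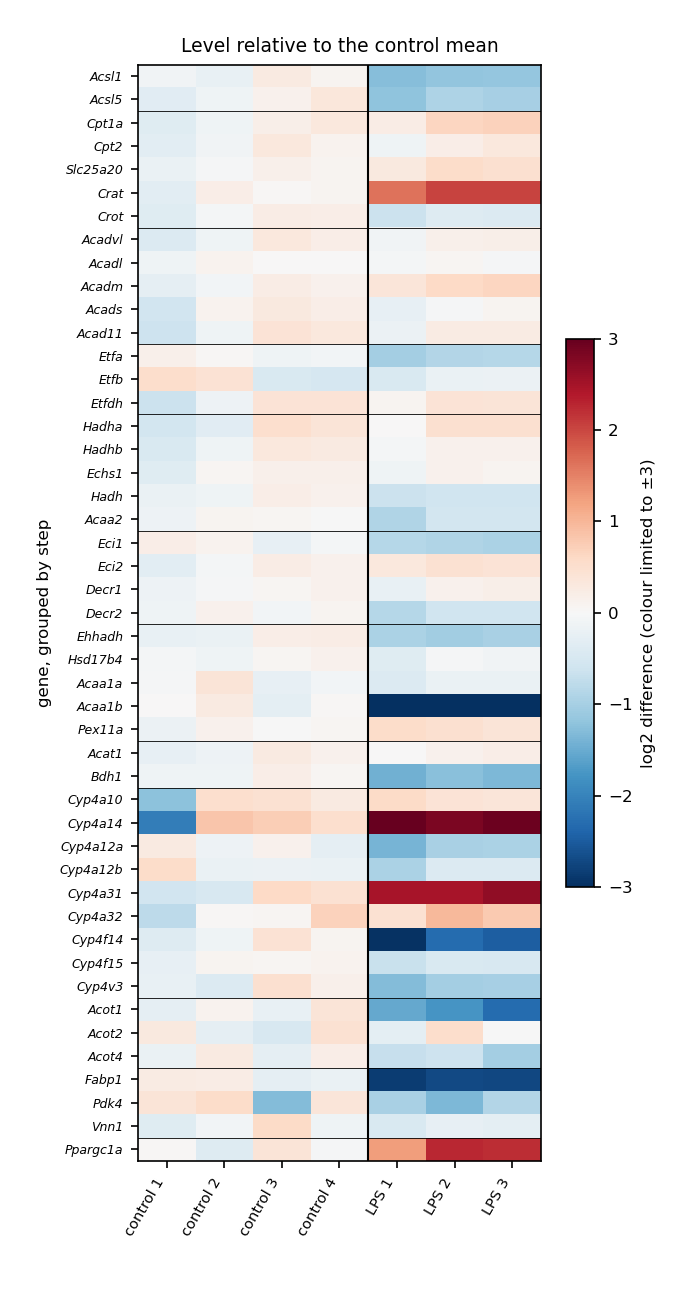
Log2 difference of each of the 47 tested genes (vertical axis, grouped by step) from its control mean in each of the 7 livers (horizontal axis), with blue for lower and red for higher, limited to 3 on either side. Control replicate 1 is blue for most genes, 37 of 47 being below the control mean there, and among the strongest colours are those of Acaa1b, Fabp1, Cyp4a14 and Cyp4a31 in the LPS livers.

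By the median member, the control livers differed among themselves more than the LPS livers, of which replicates 2 and 3 are the pair noted above. The median coefficient of variation of the tested members was 19.1% in control replicates and 10.4% in LPS replicates, with Cyp4a14 the most variable in the control group (56.2%) and Acot2 in the LPS group (37.9%). Control replicate 1, the library with the largest mitochondrial share, was the lowest control liver for 32 of the 47 members, against 4, 8 and 3 members for control replicates 2, 3 and 4. In control replicate 1, 37 members were below the control mean, with a median log2 difference of -0.23, and in control replicate 2 there were 27, with a median of -0.07. Control replicates 3 and 4 had 13 and 10 members below it and medians of 0.16 and 0.12. What the mitochondrial share contributes to these differences was not tested. Without control replicates 1 and 2, 5 members were higher and 19 lower. The log2 change of 10 members that did not pass then changed its sign: Etfb went from -0.35 to 0.18, and Cpt2, Acadvl, Acad11, Etfdh, Hadha, Hadhb, Echs1, Decr1 and Acat1 went from positive to negative values, between -0.27 and -0.07, so their direction depends on these control livers.

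Further genes of the pathway were taken from a list of 36 other enzymes and carriers of fatty acid oxidation and ketogenesis. Of these 33 were tested, 13 (39.4%) were lower, where 13.0% of all tested genes were, and 3 (9.09%) were higher, where 13.3% of all tested genes were, with a median log2 fold change of -0.38. With each mouse left out in turn 9 to 15 were lower and 3 or 4 higher. The deepest falls were in Bdh2, a cytosolic hydroxybutyrate dehydrogenase, Abcd2, a peroxisomal carrier of very long-chain acyl-CoA, and Nudt7, a peroxisomal enzyme that breaks down CoA. Bdh2 fell from 16.4 ± 5.04 CPM to 1.5 ± 0.615 CPM, a log2 change of -3.44 (adjusted p = 8.32e-06, SE 0.33). Abcd2 fell from 11.3 ± 1.18 CPM to 1.55 ± 0.658 CPM, a log2 change of -2.88 (adjusted p = 1.29e-05). Nudt7 fell from 882 ± 112 CPM to 145 ± 36.7 CPM, a log2 change of -2.60 (adjusted p = 1.66e-06). In all of these 3 genes every LPS liver was below every control liver. Slc22a5, the carnitine carrier of the plasma membrane, rose from 11.3 ± 2.95 CPM to 28.4 ± 1.06 CPM, a log2 change of 1.33 (adjusted p = 0.000243, SE 0.19), again without overlap. Mlycd, which removes the Cpt1a inhibitor malonyl-CoA, had a log2 change of -0.21 (adjusted p = 0.308).

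Of 8 genes of fatty acid uptake 4 were lower (50%, against 13.0% of all tested genes) and 2 higher (25.0%, against 13.3%), with a median log2 fold change of -0.63. With each mouse left out in turn 3 or 4 were lower, since the call for Slc27a5 (adjusted p = 0.0325) held in 1 of 7 fits (adjusted p up to 0.113). Cd36 (ENSMUSG00000002944), a fatty acid translocase, had 22.3, 27.7, 21.2 and 23.3 CPM in control replicates and 123, 153 and 153 CPM in LPS replicates. The groups were far apart, 6.03-fold, with a log2 change of 2.59 (adjusted p = 1.12e-07, SE 0.15). The binding proteins Fabp4 and Fabp5 moved in opposite directions. Fabp4 rose from 8.70 ± 2.56 CPM to 79.4 ± 7.82 CPM, a log2 change of 3.20 (adjusted p = 4.71e-07), and Fabp5 fell from 121 ± 29.8 CPM to 10.6 ± 0.589 CPM, a log2 change of -3.51 (adjusted p = 1.7e-07). Cd36 and Fabp4 are also expressed by macrophages, endothelium and fat cells. The macrophage and endothelial sums were given above, as was the adipocyte sum, which came mostly from Fabp4 itself. Of the adipocyte genes Lep had no counts, while Adipoq and Plin1 had 5 and 2 counts, all in control replicate 1. The contribution of macrophages, endothelium and fat cells to Cd36 and Fabp4 was not tested.

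Among 17 receptors and regulators of the pathway 6 were lower (35.3%, against 13.0% of all tested genes) and 2 higher (11.8%, against 13.3%), with a median log2 fold change of -0.25. When single mice were left out, 5 or 6 were lower and 1 or 2 higher. Nr1d1, a repressor of the circadian clock, fell from 14.7 ± 2.91 CPM to 4.50 ± 2.65 CPM, a log2 change of -1.71 (adjusted p = 0.00285, SE 0.34). The acetyl-CoA carboxylases, which make the malonyl-CoA that blocks Cpt1a, both fell. Acacb, the form at the mitochondrial surface, went from 51.0 ± 13.5 CPM to 20.7 ± 1.95 CPM, a log2 change of -1.30 (adjusted p = 0.000394). Acaca, the cytosolic form, went from 49.5 ± 2.2 CPM to 25.8 ± 5.99 CPM, a log2 change of -0.94 (adjusted p = 0.00129), and no LPS liver reached a control liver in either gene. Pparg, a receptor related to PPAR-alpha, had a log2 change of -1.16 (adjusted p = 0.0118), with an adjusted p of 0.0626 without LPS replicate 3.

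PPAR-alpha targets outside oxidation were mixed as well: of 15 genes 14 were tested, 5 were higher (35.7%, against 13.3% of all tested genes) and 4 lower (28.6%, against 13.0%), and the median log2 fold change was 0.11. Leaving out a mouse gave 4 to 6 higher and 3 or 4 lower. Cidec, a protein of the lipid droplet surface, rose from 1.41 ± 0.684 CPM to 11.6 ± 2.97 CPM, a log2 change of 3.06 (adjusted p = 4.35e-05, SE 0.36). Plin5, which tethers droplets to mitochondria, rose from 18.3 ± 3.12 CPM to 56.8 ± 8.24 CPM, a log2 change of 1.63 (adjusted p = 1.42e-05). Both were higher in every LPS liver than in every control liver. Angptl4, a secreted inhibitor of lipoprotein lipase, rose from 72.0 ± 19.2 CPM to 152 ± 7.13 CPM, a log2 change of 1.08 (adjusted p = 0.000966), and Lpl, the lipase itself, fell from 158 ± 33.5 CPM to 48.5 ± 1.5 CPM, a log2 change of -1.70 (adjusted p = 2.01e-05). Plin2, another droplet protein, had a log2 change of 0.44 (adjusted p = 0.124), with an adjusted p of 0.0372 without LPS replicate 1 and 0.0346 with the replicate number as a block. Fgf21, a fasting hormone, had 3.11, 0.378, 1.89 and 2.13 CPM in control replicates and 0.460, 1.48 and 1.12 CPM in LPS replicates, low and overlapping, with a log2 change of -0.89 (adjusted p = 0.353).

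Pathways that share products with beta-oxidation were followed as well. Of the 5 other kinases and phosphatases of pyruvate dehydrogenase 1 was lower (20%, against 13.0% of all tested genes), Pdk1, with a log2 change of -0.68 (adjusted p = 0.0122) and an adjusted p of 0.0503 and 0.0787 without LPS replicate 2 or 3. Pdk2, the main kinase of the fed liver, had a log2 change of 0.15 (adjusted p = 0.453). Of 15 genes of peroxisome biogenesis 2 were lower (13.3%, close to the 13.0% of all tested genes), Pex6 and Pex7, with log2 changes of -0.57 (adjusted p = 0.0113) and -0.45 (adjusted p = 0.0219), and the median was 0.08. The call for Pex6 was lost without LPS replicate 2 (adjusted p = 0.0827), and that for Pex7 without LPS replicate 1 (0.0545), 2 (0.0644) or 3 (0.126), with the replicate number as a block (0.0587) and with no filter on low counts (0.0614). Of 16 genes of the citric acid cycle, which burns the acetyl-CoA that is not made into ketone bodies, 6 were lower (37.5%, against 13.0% of all tested genes) and 1 higher (6.25%, against 13.3%), with a median log2 fold change of -0.28. Fits that left out a mouse had 4 to 8 lower and 1 to 3 higher. Idh3b, a subunit of isocitrate dehydrogenase, and Sdhb, a subunit of succinate dehydrogenase, were 1.96-fold and 1.85-fold lower, with log2 changes of -0.97 (adjusted p = 0.00039) and -0.89 (adjusted p = 0.00119). Fh1, the fumarase, rose 1.76-fold, a log2 change of 0.82 (adjusted p = 0.00237). The groups did not overlap in any of these 3 genes.

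As the members moved in opposite directions, their promoters were searched for the direct repeat that PPAR-alpha and the retinoid X receptor bind, written loosely as AGGNCANAGGNCA, on both strands of the window from 250 bases before to 50 bases after each start in RefSeq's table for GRCm38.p6, a build other than that of the counts. The table held 37 of the 48 members, in 43 windows. The letters were found in 125 of all 32851 windows, or 0.381%, and in 1 window of a member, that of Fabp1. The strict form AGGTCANAGGTCA, a special case of the loose one, was in 13 of all windows, or 0.0396%, and in 0 of the members' windows. The 250 bases before the start of Fabp1 are shown because this member had the match and fell far. They lie at chr6:71199629-71199878 on the plus strand and read 5′ to 3′ as follows, with the match, on the reverse strand from 67 bases before the start, in capitals.
Fabp1: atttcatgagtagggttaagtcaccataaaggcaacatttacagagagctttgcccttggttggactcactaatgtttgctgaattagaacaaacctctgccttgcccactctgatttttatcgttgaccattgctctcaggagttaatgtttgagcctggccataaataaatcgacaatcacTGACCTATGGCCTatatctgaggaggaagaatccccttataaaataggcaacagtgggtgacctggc
A match of letters is a description of the sequence, and windows without one say nothing of binding elsewhere. No promoter was searched for Acaa2, Acat1, Crat, Cyp4a10, Cyp4a12a, Cyp4a12b, Cyp4a14, Cyp4a31, Decr1, Hsd17b4 or Vnn1.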

How the data were processed

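RNA-seq libraries of mouse liver, made from poly(A) RNA and strand-specific, were sequenced by the authors, who per the labels trimmed reads with cutadapt 1.9.1, aligned them to GRCm39 with HISAT2 2.2.1 and counted them per gene with HTSeq 0.6.1. The deposited values are raw counts per gene without a stated counting mode, strand setting or rule for reads that match more than 1 gene. The libraries of 4 control and 3 LPS mice were used, each mouse being 1 sample, with total counts between 14991022 and 20500391, so that 3 counts amount to between 0.138 and 0.212 CPM. Counts were scaled by TMM, filtered with filterByExpr, which left 13683 of 56691 genes, and compared between LPS and control with edgeR 4.0.16 (quasi-likelihood test, limma 3.58.1, R 4.3.3). P values were adjusted by Benjamini-Hochberg over all tested genes, with calls made below 0.05. The fit was checked on simulated data. CPM are counts divided by the scaled library size, and summed levels of gene lists are sums of CPM. Alternatives, 19 in all, were other scalings, filters and thresholds, DESeq2 1.42.0, the replicate number as a block (without control replicate 4), each library left out, LPS replicates 2 and 3 summed, and control replicates 1 and 2 left out, the last added after the data had been seen. The 48 members and the further lists of genes were chosen by function with earlier results of these data known. Promoters came from RefSeq (GRCm38.p6), and the motifs were searched for in windows of 300 bases. The deposited counts cover control and LPS livers only and hold no samples of sulforaphane-treated mice. Some genes of the pathway are not reported here.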

Additional observations from a re-analysis of the deposited data

Results flagged for a closer look

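Among the 79 groups of 4 control livers that were examined, 3 held a sample far from the other 3, where chance alone marks about 1 in 20 groups. Cyp4a12b, a fatty acid omega-hydroxylase, had 110.6 CPM in control replicate 1, and the other control livers lay between 65.3 and 65.7 CPM. Pdk4, which inhibits pyruvate dehydrogenase, had 6.35 CPM in control replicate 3, and the other control livers lay between 21.3 and 24.3 CPM. Nudt7, a peroxisomal CoA diphosphatase, had 1049 CPM in control replicate 3, and the other control livers lay between 811 and 837 CPM. The cause was not tested for any of them.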

How the results depend on the processing

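Of the 18 lower members 15 and of the 7 higher members 4 (Crat, Cyp4a14, Cyp4a31 and Ppargc1a) kept their call in every fit at the same threshold, and no call turned to the other direction. With control replicates 1 and 2 left out, the log2 change of members that did not pass changed its sign: Cpt2 from 0.12 to -0.09, Acadvl from 0.06 to -0.19, Acad11 from 0.06 to -0.27, Etfb from -0.35 to 0.18, Etfdh from 0.23 to -0.12, Hadha from 0.27 to -0.12, Hadhb from 0.04 to -0.24, Echs1 from 0.02 to -0.13, Decr1 from 0.03 to -0.07 and Acat1 from 0.10 to -0.10. With each library left out in turn, the number of all genes called higher ranged from 1290 to 1906 (1824 with all libraries), that of genes called lower from 1146 to 1868 (1773), the members called higher from 4 to 9 (7), the members called lower from 15 to 19 (18), and the members' median log2 fold change from -0.26 to -0.07 (-0.16). Without LPS replicate 2 or 3, 1146 and 1159 genes were called lower. An adjusted p below 0.01 left 1091 higher and 993 lower genes (members 4 and 16), and an absolute log2 fold change above 1 left 1068 and 1000 (members 4 and 11). Total counts without scaling factors shifted the median of all genes by -0.12 and gave 1350 higher and 2055 lower genes, 4 higher and 20 lower members and a member median of -0.29; 39.65% of called genes were then higher, against 50.71% before. With LPS replicates 2 and 3 summed, 1348 genes and 4 members were higher and 1195 genes lower. With control replicates 1 and 2 left out, an alternative chosen after seeing the data, 1804 genes were higher and 1691 lower, with 5 and 19 members and a member median of -0.27. DESeq2 called 2032 genes higher and 2019 lower (members 8 and 20). With the replicate number as a block, control replicate 4 left out, 3252 of 13344 tested genes were called (9 members higher, 17 lower), against 3153 (8 and 17) in the same 6 samples without the block; deviations of same-numbered control and LPS replicates had correlations of 0.16, -0.06 and 0.06 for pairs 1, 2 and 3 of the block. Beside the single calls given in the report as lost or gained, and apart from the stricter thresholds, LPS replicates 2 and 3 summed ended the calls for Slc25a20 (adjusted p = 0.132), Acadm (0.109), Pex11a (0.0633), Cyp4f15 (0.055), Pdk4 (0.0684), Pdk1 (0.0586) and Pex7 (0.0904). Calls were gained for Crot with total counts (0.029), with mitochondrially encoded genes left out (0.0439) and with at least 10 counts in every sample (0.0393), for Cyp4a12b with mitochondrially encoded genes left out (0.0459), at least 10 counts (0.0453) and no filter (0.00477), and for Cpt1a with no filter (0.0199). The cause was not tested. Below 0.138 to 0.212 CPM, the value of 3 counts, a gene cannot be told from absent.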

Other observations

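Further relatives of the members were looked up after the values of the members had been seen, 19 genes in all, of which 9 passed and 10 did not, where 26.3% of all tested genes passed, as a description only. Acsm5, a medium-chain acyl-CoA synthetase, had 92.7, 122, 129 and 104 CPM in control replicates and 24.8, 21.5 and 22.6 CPM in LPS replicates, with log2 fold change -2.29 (adjusted p = 6.26e-07). Its relatives Acsm1 and Acsm2 had log2 fold changes of -0.63 (adjusted p = 0.0093) and -2.06 (adjusted p = 0.0106), and the call for Acsm2 held in 6 of the 7 fits that left out 1 mouse (adjusted p up to 0.0521). Acsm3 had 0.37 (adjusted p = 0.348) and did not pass. Plin4, a lipid droplet protein, had 3.60, 2.14, 1.83 and 2.13 CPM in control replicates and 29.9, 7.21 and 11.6 CPM in LPS replicates, LPS replicate 1 being the highest, with log2 fold change 2.76 (adjusted p = 0.000414) that was as low as 1.97 when 1 mouse was left out, and Plin3 had 0.69 (adjusted p = 0.00671), a call that held in 6 of 7 such fits (adjusted p up to 0.052). In the Cyp4f family Cyp4f13 and Cyp4f17 were lower, at -0.88 (adjusted p = 0.00043) and -0.71 (adjusted p = 0.00683), and Cyp4f16 and Cyp4f18 were higher, at 1.48 (adjusted p = 0.00684) and 2.02 (adjusted p = 0.0245). Cyp4f18, which had 3 to 11 counts in the control livers, passed the filter on low counts only through the LPS livers. Its place among the 9 genes that passed thus follows in part from that filter. The call for Cyp4f18 held in only 2 of the 7 fits that left out 1 mouse (adjusted p up to 0.075). The other genes that did not pass were Acot6, Acot7, Acot9, Acot11, Cideb, Cyp4b1, Cyp4f39, Fabp7 and Slc27a3.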
